A study of Mus musculus with 2 samples.

Results

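The cells described here are the smaller erythroid progenitors of a Car1-GFP bone marrow library whose transcripts included little or no Gata2. They were chosen from the deposited matrix by a rule on measured values: under 10% mitochondrial UMIs (unique molecular identifiers, counted transcript molecules), under 1% globin UMIs, under 1 Gata2 UMI per 10000 UMIs, 0 UMIs of the mast cell genes Cpa3, Ms4a2 and Gzmb, under 5 UMIs of the platelet gene Pf4, and under 20000 UMIs in total. Of the 2522 barcodes of this library 2400 had under 10% mitochondrial UMIs, and 537 of those met the rule, which is 22.4% (95% exact binomial interval 20.7 to 24.1, counting error only). They are 537 of the 8980 barcodes of the whole series. "Smaller" refers to the number of UMIs and not to a measured cell size.

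The study made 2 droplet libraries of mouse bone marrow, each pooled from 3 naive animals of C57BL/6 background. The Car1-GFP library came from reporter mice, sorted for CD45, the pan-leukocyte surface protein, and for GFP expressed from the Car1 reporter; how the reporter was built is not given in the sources used here. The marrow library came from mice described by their strain alone. It was sorted as CD45+ CD3- Ly6G- cells, a gate against the T cell marker CD3 and the neutrophil marker Ly6G. It still held barcodes rich in the neutrophil and monocyte genes S100a8 and S100a9. There is 1 library per group and no map from cells to mice, so no test between groups was made, every interval covers counting error only, and every comparison describes these cells.

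In the bone marrow, red cells arise from progenitors that first share features with megakaryocyte and mast cell precursors and then commit to the erythroid path. Gata2 acts early in this path and gives way to Gata1, which with Klf1 drives the erythroid programme. Epor, the receptor of erythropoietin, keeps committed progenitors alive, and the cells divide several times before they fill with hemoglobin. Carbonic anhydrases such as Car1 and Car2 convert carbon dioxide and water into bicarbonate and are abundant in the red cell line.

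Klf1 and Epor are the genes by which these cells are called erythroid without use of the sort, so the 250 bases before the start of each are shown. They are taken from RefSeq on GRCm38.p6, which held 2 of the 3 defining genes Klf1, Epor and Car1. Capitals mark the GATA motif that was searched, AGATAA or TGATAA on either strand.
Klf1, chr8:84901732-84901981, plus strand: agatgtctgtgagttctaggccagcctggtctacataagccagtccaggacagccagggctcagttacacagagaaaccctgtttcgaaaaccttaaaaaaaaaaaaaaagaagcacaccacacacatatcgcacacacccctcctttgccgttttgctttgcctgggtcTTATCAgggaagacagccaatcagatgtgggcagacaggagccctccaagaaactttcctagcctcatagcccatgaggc
Epor, chr9:21963577-21963826, minus strand: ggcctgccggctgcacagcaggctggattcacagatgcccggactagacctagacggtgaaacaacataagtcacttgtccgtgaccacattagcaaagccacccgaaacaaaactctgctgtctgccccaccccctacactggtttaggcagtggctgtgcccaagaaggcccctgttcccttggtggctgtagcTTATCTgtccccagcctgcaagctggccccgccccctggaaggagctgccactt
Each sequence holds 1 match, which begins 80 bases before the start of Klf1 and 54 bases before the start of Epor, and both matches lie as the reverse complement. The motif is common: 5452 of 32851 promoters of the same length (16.6%) hold it. A match describes these letters and is not a measured binding site.

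The erythroid label was checked against its 3 markers. Klf1 (ENSMUSG00000054191), the erythroid master regulator, had at least 1 UMI in 93.1% of the 537 cells. Epor (ENSMUSG00000006235) had a UMI in 47.5% and Car1 (ENSMUSG00000027556) in 99.3%. Their median depth was 11330 UMIs, so a share at fixed depth was also taken: with each barcode reduced at random to 1000 UMIs, Klf1 was seen in 26.4% of cells (22.8 to 30.4), Epor in 6.33% (4.42 to 8.74) and Car1 in 49.2% (44.9 to 53.5). For comparison the same shares were taken in 1373 barcodes of the marrow library rich in the neutrophil and monocyte genes S100a8 and S100a9, with a median of 1491 UMIs; another 1080 such barcodes were too shallow. There Klf1 was seen in 0.219%, Car1 in 1.60% and Epor in 0 of 1373 barcodes, where the upper end of the exact interval is 0.268%. All 3 markers were above their share in these barcodes, although Car1 was also the gene of the sort. The barcodes were chosen by genes of another lineage, so the comparison does not set the cells apart from other marrow cells. Free RNA within the Car1-GFP library was not measured, and its barcodes of other kinds, such as the Pf4-rich ones below, also held Klf1. Gata1, the partner of Klf1, was at 18.1% against 0.364%.

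At an equal depth of 4000 UMIs per barcode, the scale used below unless another is named, the level of Klf1 was 300.3 CPM (UMIs of the gene per 1000000 UMIs of the group; 278 to 324) in the smaller Gata2-low cells. Epor was at 65.2 CPM (54.8 to 76.9) and Car1 at 736 CPM (700.2 to 773). The order of Klf1 levels over the groups of the library ran from 173 CPM in 13 Pf4-rich barcodes (79.1 to 329), through 296 CPM in 528 Gata2-rich cells and 300.3 CPM in the smaller Gata2-low cells, to 335 CPM in 364 barcodes with a mast cell UMI and 350.4 CPM in 580 larger Gata2-low cells. It was highest in the cells with globin, at 414 CPM in 99 cells with 5% or more and 462 CPM in 279 cells with 1 to under 5%. Each neighbour in this order overlapped the next in its interval. The smaller and the larger Gata2-low cells are not neighbours in it, and the interval of the larger (326.8 to 375.4) did not overlap that of the smaller. Epor ran from 38.5 CPM in the Pf4-rich barcodes and 45.5 CPM in the Gata2-rich cells (36.8 to 55.5) to 57.0 CPM with a mast cell UMI, 65.2 CPM in the smaller and 80.6 CPM in the larger Gata2-low cells, again with overlap between neighbours. In the cells with 5% or more globin Epor was at 75.8 CPM (51.1 to 108), which overlaps both Gata2-low groups. The cells with 1 to under 5% globin are left out of this order. Car1 was at 135 CPM in the Pf4-rich barcodes, 379 CPM (344 to 417) and 437 CPM (374 to 507) in the cells with 1 to under 5% and with 5% or more globin, 597 CPM in the larger cells (566 to 629) and 661 CPM with a mast cell UMI (620.3 to 705). It was highest in the Gata2-rich cells, at 730.1 CPM, and the smaller Gata2-low cells, at 736 CPM, which overlap.

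The globin level, which the rule used, was close in groups of different kinds, all of which were held under 1% globin. The adult beta chain Hbb-bs was at 2834 CPM in the smaller Gata2-low cells, 2716 in the larger, 2812 in the Gata2-rich and 2750 in the Pf4-rich barcodes, which were chosen by a platelet gene. Free RNA in this library was not measured, so globin UMIs at this level are not read as expression by the cells. The 279 cells with 1 to under 5% globin stood at 9447 CPM.

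Total UMIs of the smaller Gata2-low cells ranged from 4706 to 19959 with quartiles of 7263 and 15268. The median mitochondrial share was 3.35% in the smaller and 3.33% in the larger Gata2-low cells, and the median ribosomal protein share 37.0% and 34.2%. The limit of 20000 cut through a continuous distribution: 46 cells lay between 18000 and 20000 UMIs and 66 cells of the larger group between 20000 and 22000. The larger cells had a median of 28387.5 UMIs, the Gata2-rich cells 7855 and the cells with 1 to under 5% globin 18719. The Gata2 limit depends on depth, since under 10000 UMIs it requires 0 Gata2 UMIs. Of the 537 cells 407 had 0 Gata2 UMIs and 130 had 1, while 180 of the Gata2-rich cells also had just 1. The globin limit was less crowded, with 5 cells between 0.9 and 1% inside and 4 between 1 and 1.1% outside. A further 61 barcodes would have met the rule but for a single UMI of Cpa3, Ms4a2 or Gzmb.

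**Figure D1:**
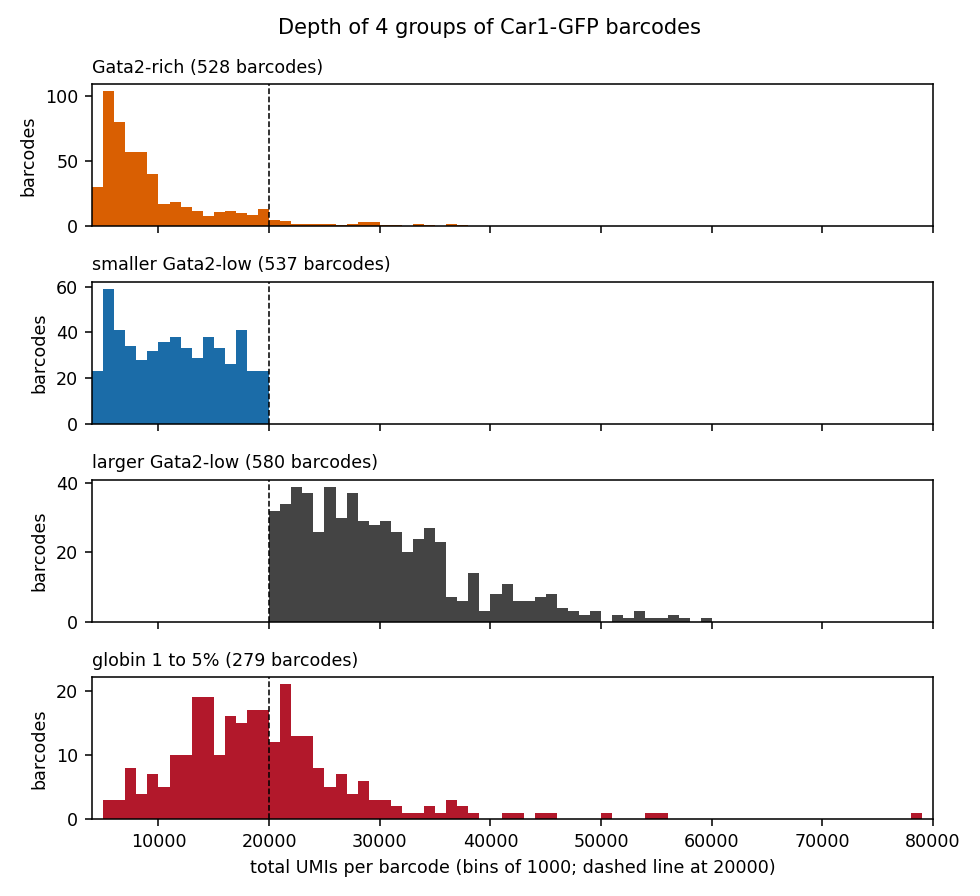
Number of barcodes (vertical axis) by total UMIs in bins of 1000 (horizontal axis) in 4 groups of the Car1-GFP library, each group with its own vertical scale. The 537 smaller Gata2-low cells end at the dashed limit of 20000 UMIs, where the 580 larger cells begin, and most of the 528 Gata2-rich cells lie under 10000 UMIs.

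The rule names what the cells lack and not what they hold, and 6 of the 537 were rich in transcripts of another lineage. These 6 carried 33 to 1606 UMIs of the granulocyte and monocyte lists among their 4000, while no other member had more than 6, and they held 91.8% of all Ngp, Camp, S100a8 and S100a9 UMIs of the group. The summed granulocyte list (14 genes, none at 0) was 1040 CPM with them and 110.2 CPM without them, against 104 CPM in the larger cells without the barcodes of this kind and 147 CPM in the Gata2-rich cells. The monocyte list was 155 CPM with these barcodes and 24.5 CPM without them. In the 6 barcodes Klf1 was at 208 CPM and Car1 at 167 CPM, levels that rest on few UMIs and are given without an interval. Results are given for all 537 cells, and for the 531 without these 6 where the leading genes differ.

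Markers of other lineages were also summed. Of 16 mast cell and basophil markers 6 were at 0 UMIs at this depth. The rule set Cpa3, Ms4a2 and Gzmb to 0, and Tpsb2, Tpsab1 and Cd200r3 were at 0 also in the barcodes with a mast cell UMI, so these zeros do not tell the groups apart. The list summed to 60.5 CPM, or 47.1 CPM without the 6 barcodes rich in granulocyte RNA. It was at 33.6 CPM in the larger and 80.0 CPM in the Gata2-rich cells. The barcodes with a mast cell UMI, which the rule also separated, stood at 285 CPM. Of 7 measured B cell markers 3 were at 0, and the list summed to 13.04 CPM. Of 9 dendritic markers 4 were at 0, including Flt3 and Siglech, which were at 0 in the larger cells as well. The dendritic list summed to 104 CPM, against 97.4 CPM in the larger and 101 CPM in the Gata2-rich cells. The 7 T, NK and innate lymphoid markers summed to 138 CPM, of which the granule gene Nkg7 made up 136 CPM, with the T cell receptor component Cd3e at 0. The 14 megakaryocyte markers, which include the Pf4 limited by the rule, summed to 204 CPM, against 137 CPM in the larger and 228 CPM in the Gata2-rich cells, with Gp6 at 0 in all 3 groups. In 44.3% of the cells Xist, the X-inactivation RNA of females, and a Y-linked transcript were found in the same barcode; 34.1% had Xist alone and 14.3% a Y-linked transcript alone. In the deeper larger cells both were found in 73.6%. Scrublet called 2 of the 537 cells doublets and none was removed; 3 of the barcodes also occur in the marrow library, which shares 14 with this library. The part of shared RNA or of doublets in the results below was not tested.

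The cells differed among themselves along their depth, even after every barcode was reduced to the same number of UMIs. The shallow end, 216 cells under 10000 UMIs, carried early progenitor and immediate early transcripts at higher levels than the deep end, 144 cells of 15000 to under 20000 UMIs; here and in the next sentences the 6 barcodes rich in granulocyte RNA are left out. Plac8, expressed in myeloid and early progenitors, was at 1223 CPM in the shallow cells (1151 to 1299), 719 CPM in the 171 cells of 10000 to under 15000 UMIs and 413 CPM in the deep cells (362 to 469). Vim, the intermediate filament vimentin, was at 234, 80.4 and 59.0 CPM in the same order, and Sox4, a transcription factor of early progenitors, at 103, 45.3 and 31.3 CPM. The intervals of the shallow and deep cells did not overlap for any of these 3 genes. Malat1, a nuclear noncoding RNA, stood at 10256 CPM in the shallow cells, 5890 in the middle and 4780 in the deep cells. Jun, an immediate early gene that dissociation can induce, was at 398, 173 and 139 CPM. The summed immediate early list went from 939 to 532 and 429 CPM.

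In the other direction, Car2 was at 1910 CPM in the shallow cells (1819 to 2004), 2117 CPM in the middle and 2639 CPM in the deep cells (2508 to 2775). Hist1h2ap, a replication histone gene, was at 168, 267 and 439 CPM. It belongs to a family of near-identical copies whose reads cannot be told apart with certainty. The S phase list summed to 2759, 2999 and 3347 CPM, and the ribosome biogenesis list to 6535, 7208 and 7622 CPM. The defining genes did not follow the depth: Klf1 was at 324, 276 and 297 CPM, Epor at 65.97, 59.9 and 72.9 CPM and Car1 at 728, 767 and 734 CPM, with overlapping intervals between the shallow and deep cells for each.

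**Figure D2:**
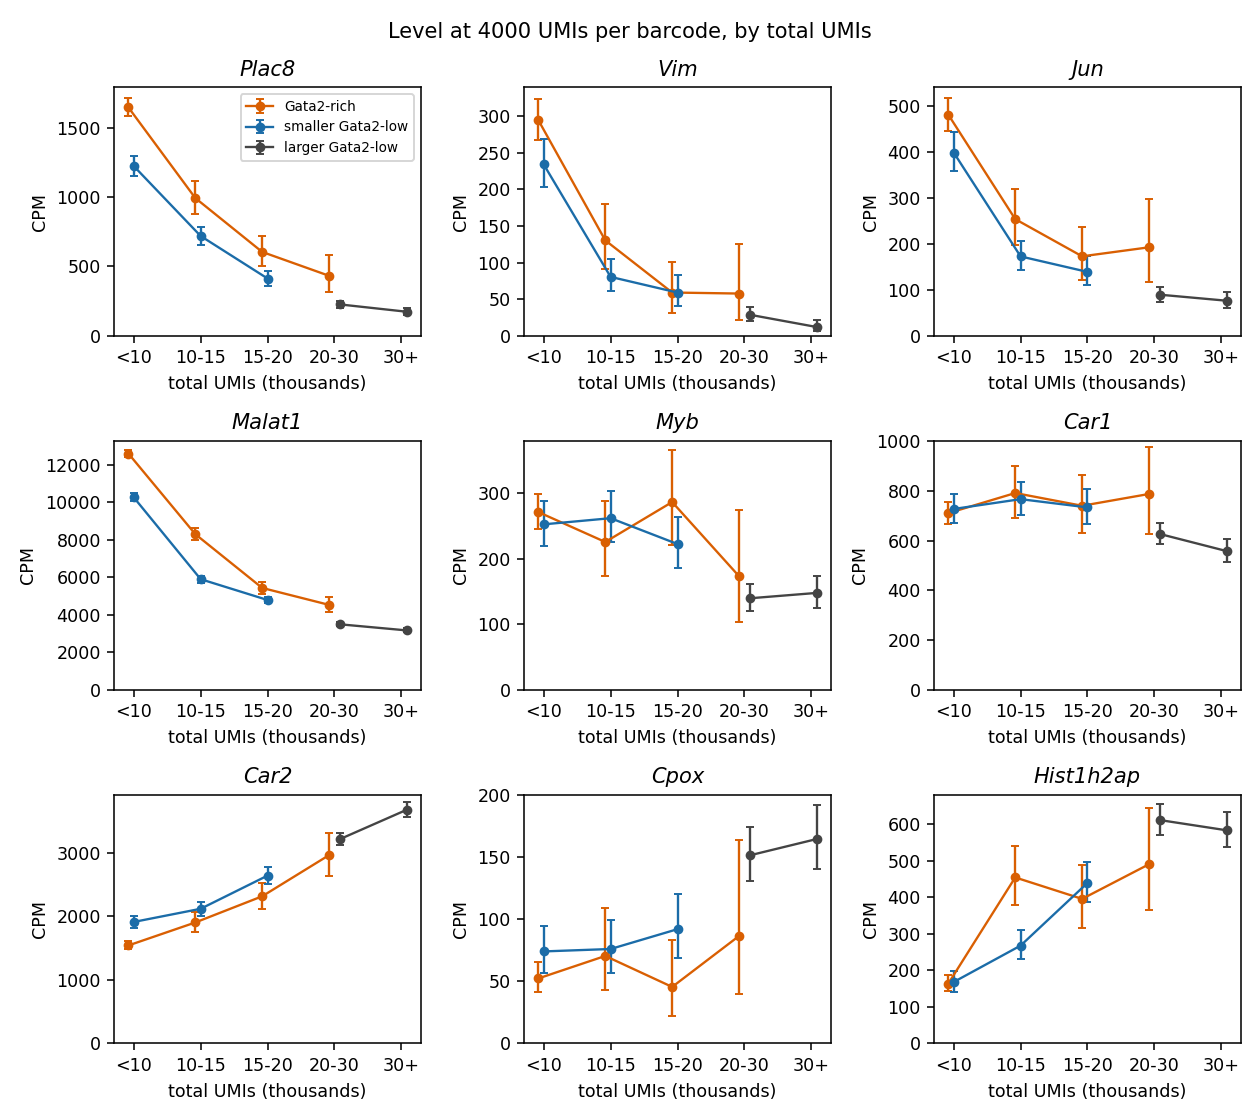
Level of 9 genes (vertical axes, CPM at 4000 UMIs per barcode, each from 0) by total UMIs of the barcode in units of 1000 (horizontal axes) in Gata2-rich, smaller Gata2-low and larger Gata2-low cells; bars are exact Poisson 95% intervals, bins of under 20 barcodes are left out, and the barcodes rich in granulocyte RNA are left out. Plac8, Vim, Jun and Malat1 are lower in deeper bins, Car2 and Hist1h2ap higher, and Car1 lies between 728 and 767 CPM within the smaller cells.

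Over all UMIs, 2482 genes averaged 50 CPM or more; 74 of them (2.98%) stood 1.5-fold or more above the deep end in the shallow end and 17 (0.685%) stood as far below it. The highest log2 ratios belonged to Sox4 (2.01), Mef2c (1.83), Vim (1.75), Ctla2a (1.60), Nkg7 (1.51), Fos (1.48), Jun (1.45) and Plac8 (1.44). The lowest were Hist1h2al (-1.39), Hist1h2ap (-1.28), Dnph1 (-0.77), Memo1 (-0.71) and Cpox (-0.67), a heme synthesis enzyme. Of the lists, 4 of 5 measured immediate early genes were past 1.5-fold higher (median log2 1.38), 5 of 6 early progenitor genes (0.87) and 2 of 4 nuclear noncoding RNAs (0.55), against a median of -0.05 over all genes. No gene of ribosome biogenesis (16 measured, median -0.23) or of nuclear-encoded oxidative phosphorylation (17 measured, -0.14) was past 1.5-fold.

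Counted as UMIs per cell, without reduction to equal depth, the same genes ranged from a lower count in deeper cells to a rise steeper than that of the total. The mean total per cell was 6863 UMIs in the shallow cells, 17325 in the deep cells and 37121 in the 249 larger cells of 30000 UMIs or more, a 2.52-fold and 5.41-fold step. Jun stood at 2.74 UMIs per cell in the shallow (2.52 to 2.97), 2.53 in the deep and 2.78 in the largest cells, and Fos, its immediate early partner, at 0.514, 0.465 and 0.566. Over the same cells Plac8 went from 8.25 to 7.65 and 6.01 UMIs per cell and Vim from 1.54 to 1.16 and 0.811. Malat1 went from 67.8 to 81.3 and 115 UMIs, 1.70-fold in all. Jun, Fos, Plac8 and Vim were thus lower on the CPM scale in deeper cells while their count per cell was nearly constant or lower. Klf1 went from 2.097 to 5.26 and 12.9 UMIs per cell, 6.14-fold, near the total. Npm1, a nucleolar ribosome assembly protein, went from 18.3 to 55.1 and 141 UMIs (7.68-fold), Car2 from 13.6 to 45.4 and 134 (9.90-fold) and Hist1h2ap from 1.19 to 7.27 and 21.7 (18.3-fold). Car1 went from 4.98 to 12.7 and 18.6 UMIs, 3.75-fold, so that its step from the deep to the largest cells was smaller than that of the total.

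**Figure D3:**
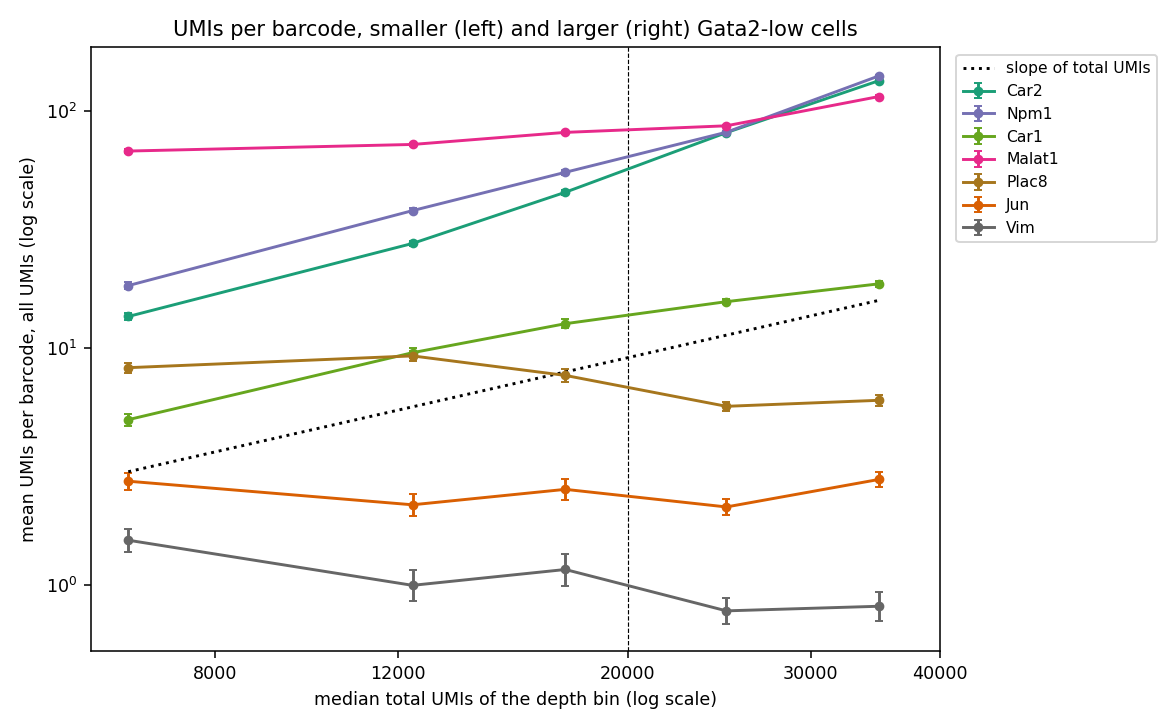
Mean UMIs per barcode without reduction of depth (vertical axis, log scale) against the median total UMIs of 5 depth bins (horizontal axis, log scale), 3 of smaller and 2 of larger Gata2-low cells on either side of the dashed line at 20000; bars are exact Poisson 95% intervals, and the dotted line has the slope of the total. Car2 and Npm1 climb more steeply than the total, Malat1 goes from 67.8 to 115 UMIs, and Plac8, Jun and Vim are nearly flat or lower to the right.

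The larger Gata2-low cells met the same rule but for the depth limit. Set against them, the smaller cells had higher UMI shares of early progenitor and immediate early transcripts and lower shares of mitotic ones. The limits on mast cell and Pf4 UMIs are absolute counts, so a deep barcode meets them less easily than a shallow one. Of the smaller cells 75.8% had 0 Gata2 UMIs, and of the larger 47.8%, counted over all UMIs and so at unequal depth. Gata2, which the rule limited, was at 17.2 against 26.7 CPM at 4000 UMIs per barcode. The part of these limits in the differences was not tested. At 4000 UMIs per barcode, 4558 genes averaged 20 CPM or more, and of these 248 (5.44%) stood 1.5-fold or more above the larger cells and 177 (3.88%) 1.5-fold or more below them. With all UMIs used the counts were 147 and 68, and with scaling by the median ratio 304 and 129, since the median log2 ratio of all genes was -0.06. Cells on either side of the limit were compared over all UMIs and genes of at least 50 CPM, without the barcodes rich in granulocyte RNA. Between cells of 15000 to under 20000 and larger cells of 20000 to under 30000 UMIs, 12 of 2474 genes (0.485%) were higher and 6 (0.243%) lower. The depth and the floor differ from those of the counts at 4000 UMIs, so these counts are not on the same scale.

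The leading genes over all 537 cells were Ngp (log2 4.63), S100a9 (3.97), Camp (3.55), S100a8 (3.31) and Lyz2 (3.26), which came from the 6 barcodes rich in granulocyte RNA. Without these barcodes Vim led, at 137 CPM against 21.6 CPM (log2 2.67), followed by Plac8 at 841 against 214 CPM (1.98) and Nkg7 at 135 against 40.9 CPM (1.72). Gmfg, a regulator of branched actin, was at 233 against 72.0 CPM (1.69), Jun at 255 against 84.1 CPM (1.60) and Ifitm1, an interferon-induced membrane protein of early progenitors, at 170.4 against 57.8 CPM (1.56). Igfbp4, which binds insulin-like growth factors (1.54), and Txnip, a thioredoxin inhibitor (1.45), completed the highest 8. Of the early progenitor list, 5 of 7 measured genes were past 1.5-fold higher (median 0.98), namely Sox4, Ifitm1, Cd48, Hhex and Adgrg1. Of the immediate early list 6 of 7 were (median 1.59), with Egr1 at 67.5 against 12.9 CPM (log2 2.38, 1.81 to 3.00) and Fos at 52.1 against 12.9 CPM (2.01, 1.42 to 2.64). Malat1 was at 7329 against 3344 CPM (1.13) and Neat1, the scaffold of paraspeckles, at 47.0 against 16.8 CPM (1.48). The part of the immediate early and nuclear transcripts in the other differences was not tested.

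The lowest genes were Hist1h2ap, at 276 against 598 CPM (log2 -1.12, -1.26 to -0.98), Odc1, the first enzyme of polyamine synthesis, at 99.2 against 198 CPM (-0.997), and Cpox at 78.7 against 157 CPM (-0.996). The lipid kinase Sphk1 (-0.99), the asparagine synthetase Asns (-0.94), the cell cycle factor E2f4 (-0.94), Bex4 (-0.93) and the mitotic ubiquitin enzyme Ube2s (-0.91) followed. Of the G2 and M phase list 9 of 19 measured genes were past 1.5-fold lower and none higher (median -0.58), among them Kif20a (-1.09), Hmmr (-0.92) and the mitotic kinase Cdk1, at 104 against 176 CPM (-0.76). The S phase list had a median of -0.40, with 2 of 22 genes past 1.5-fold lower, the cyclin Ccne1 (-0.59) and the ribonucleotide reductase subunit Rrm1 (-0.64). Among heme synthesis genes 2 of 7 were lower (median -0.41), Cpox and Uros (-0.82). Tfrc, the transferrin receptor that brings in iron, was at 51.7 against 94.0 CPM (-0.86). Car2 was at 2162 against 3405 CPM (-0.66, -0.71 to -0.60), while Car1 was at 736 against 597 CPM (0.30, 0.20 to 0.41).

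Some growth regulators of opposite roles were higher together. The list of 18 growth regulators as a whole was not, with a sum of 1278 CPM in the smaller and 1296 CPM in the larger cells. The anti-proliferative Btg1 (log2 1.39), the cyclin-dependent kinase inhibitor Cdkn2d (1.36) and the Myc antagonist Mxd4 (0.94) were higher in the smaller than in the larger cells, and so were Myc, at 147 against 94.8 CPM (0.63, 0.38 to 0.89), and the D-type cyclin Ccnd2, at 191 against 123 CPM (0.64). Of 17 measured erythroid transcription factors 2 were higher and 2 lower (median -0.12). Myb, which keeps progenitors dividing, was at 246 against 144 CPM (0.78, 0.58 to 0.98) and Nfe2 at 96.8 against 62.9 CPM (0.62). E2f4 and Cited4, at 75.9 against 138 CPM (-0.86), were lower. Gata1 was at 181 against 180 CPM, and the Gata1 partners Lmo2 and Gfi1b were within 1.5-fold. Of the receptors, Kit, the stem cell factor receptor, was at 51.2 CPM (42.1 to 61.7) against 53.9 CPM (44.9 to 64.2), intervals that overlap.

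Set against the Gata2-rich cells, which the Gata2 limit separated from them, the smaller Gata2-low cells had lower UMI shares of several early progenitor transcripts. Of 4635 genes 36 (0.777%) were higher by 1.5-fold or more and 124 (2.68%) lower by as much; with all UMIs the counts were 10 and 38. Ctla2a, a cathepsin inhibitor homologue, was lowest at 80.5 against 201 CPM (log2 -1.32, -1.58 to -1.06). Ypel3 (-0.99), the selenium carrier Sepp1 (-0.98), Ifitm1, at 169 against 301 CPM (-0.83, -1.02 to -0.65), the RNA-binding protein Celf2 (-0.82), Txnip (-0.77), Ino80b (-0.75) and Csrp3 (-0.75) followed. In the early progenitor list 4 of 11 measured genes were past 1.5-fold lower and none higher (median -0.34): Meis1, at 21.9 against 45.0 CPM (-1.04), Hoxa9 (-0.85), Ifitm1 and Sox4 (-0.61). Of the immediate early list 4 of 8 were lower (median -0.60), and Malat1 was at 7329 against 10732 CPM (-0.55), values whose part in the early gene difference was not tested.

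Few genes were higher than in the Gata2-rich cells once the 6 barcodes rich in granulocyte RNA were left out. Among genes averaging 50 CPM or more, the cargo receptor Lman1 (log2 0.63) and Nxpe2 (0.60) had the highest ratios. The sterol-regulated Tmem97 (0.58), the folate enzyme Mthfd1 (0.58) and Epor (0.54) came next, and these lay under 1.5-fold. Over all 537 cells Epor was at 65.2 against 45.5 CPM (0.52, 0.13 to 0.91). Of the red cell membrane list 1 of 11 genes was past 1.5-fold higher, Add2, the beta-adducin of the membrane skeleton, at 43.3 against 23.7 CPM (0.87, 0.36 to 1.40). Heme synthesis genes had a median of 0.24 with 0 of 6 past 1.5-fold. Klf1 (0.02), Car1 (0.01) and all 17 measured erythroid transcription factors were within 1.5-fold. Car2 was at 2162 against 1770 CPM (0.29, 0.23 to 0.35).

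The Gata2-rich cells were the shallower group, so cells of like depth were also set side by side, over all UMIs and genes of at least 50 CPM. Under 10000 UMIs, where the rule separates 0 from at least 1 Gata2 UMI, 10 of 2504 genes (0.399%) were higher and 12 (0.479%) lower in 216 smaller Gata2-low than in 368 Gata2-rich cells. From 10000 to under 20000 UMIs 0 of 2448 genes (0%) were higher and 9 (0.368%) lower in 315 against 126 cells. Under 10000 UMIs at equal depth, Ctla2a was at 123 CPM (100.4 to 148) against 259 CPM (233 to 286) and Ifitm1 at 233 CPM (202 to 267) against 346 CPM (316 to 377). Plac8 was at 1223 CPM against 1646 CPM (1581 to 1713), and Malat1 at 10256 against 12594 CPM. In all 4 genes the Gata2-low cells were lower with intervals that did not overlap. Car2 was higher in them, at 1910 CPM against 1540 CPM (1477 to 1605), and Epor was at 65.97 CPM (49.97 to 85.5) against 41.4 CPM (31.7 to 53.2), with intervals that overlap.

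Set against the 279 cells with 1 to under 5% globin, the differences were broad: of 4528 genes 721 (15.9%) were 1.5-fold or more above them in the smaller Gata2-low cells and 642 (14.2%) as far below. Trim10, a gene of terminal erythroid maturation, was lowest at 10.7 against 108 CPM (log2 -3.33, -4.04 to -2.68). The anion exchanger Slc4a1 was at 13.04 against 97.7 CPM (-2.91) and the glutathione transferase Mgst3 at 101 against 617 CPM (-2.61). Rgcc (-2.36), Isg20 (-2.30), the protease Ctse (-2.26) and the sialyltransferase St3gal6 (-2.24) were also among the lowest 8. All 8 measured heme synthesis genes were past 1.5-fold lower (median -1.72), with the erythroid aminolevulinate synthase Alas2 at 9.78 against 57.3 CPM (-2.55). Of 16 red cell membrane genes 11 were lower and 1 higher (median -1.64), with Sptb, a spectrin of the membrane skeleton (-2.34), among the lower, and of 10 iron handling genes 6 were lower (-0.83), led by the mitochondrial iron importer Slc25a37 (-2.08).

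Cell cycle genes were lower together: 21 of 21 measured G2 and M phase genes (median -1.34) and 20 of 22 S phase genes (-1.01), with the ribonucleotide reductase subunit Rrm2 at 161 against 726 CPM (-2.18) and the mitotic spindle protein Nusap1 at 50.3 against 194 CPM (-1.94). The cyclins exchanged places, Ccnd2 at 191 against 47.5 CPM (2.01) and Ccnd3 at 169.9 against 660 CPM (-1.96). Myc was at 147 against 25.1 CPM (2.55, 1.99 to 3.16), Myb at 246 against 65.4 CPM (1.91, 1.56 to 2.29) and Kit at 51.2 against 13.4 CPM (1.93, 1.15 to 2.82). Among the highest genes without the 6 barcodes were Psmb8, an immunoproteasome subunit (2.53), Vim (2.50), Plac8 (2.42), Ptprcap, which binds CD45 (2.40), and Cmtm7 (2.31). The immediate early and nuclear noncoding lists were also higher, with 6 of 7 and 5 of 5 genes past 1.5-fold; their part in these differences was not tested.

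**Figure D4:**
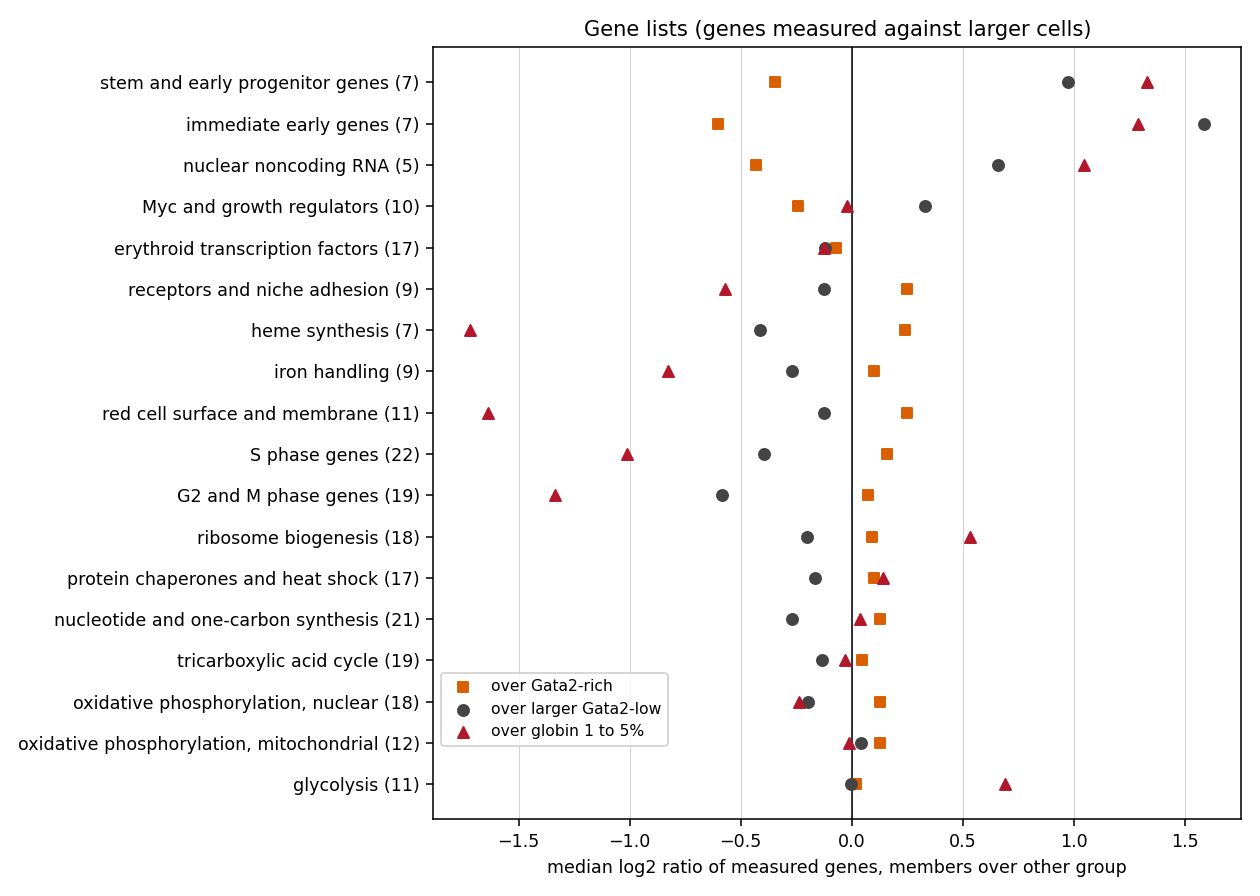
Median log2 ratio (horizontal axis) of the measured genes of 18 lists (vertical axis, number measured against the larger cells in brackets) for smaller Gata2-low cells over Gata2-rich cells (squares), larger Gata2-low cells (circles) and cells with 1 to under 5% globin (triangles); the 3 comparisons share the smaller cells. The early progenitor list lies at -0.34, 0.98 and 1.33 and the G2 and M phase list at 0.07, -0.58 and -1.34.

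None of the 18 nuclear genes of oxidative phosphorylation was past 1.5-fold in any of the 3 comparisons, with medians of 0.13 against Gata2-rich, -0.20 against larger and -0.24 against cells with 1 to under 5% globin. The tricarboxylic acid cycle had no gene of 19 past 1.5-fold against the Gata2-rich or the larger cells. In glycolysis 6 of 10 measured genes were higher than in the cells with 1 to under 5% globin (median 0.69), with Ldha, the lactate dehydrogenase subunit, at 852 against 505 CPM (0.75, 0.62 to 0.89) and Gpi1 at 184 against 88.7 CPM (1.06). Against the larger cells 1 of 11 was, Pkm, the pyruvate kinase, at 29.8 against 11.6 CPM (1.36). Ribosome biogenesis, which makes the subunits in the nucleolus, had 7 of 18 genes higher than in the cells with 1 to under 5% globin (0.53) and 0 of 18 past 1.5-fold against the larger (-0.20) and Gata2-rich cells (0.09). The amino acid response list had 1 of 11 genes past 1.5-fold against the larger cells, Asns, at 55.9 against 107 CPM.

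Against all 1863 other barcodes of the library with under 10% mitochondrial UMIs, a mixture of these groups with 364 barcodes that held a mast cell UMI, 28 of 4590 genes (0.61%) were higher by 1.5-fold or more and 103 (2.24%) lower by as much. With all UMIs the counts were 84 and 106, at 2000 UMIs per barcode 121 and 150, and with scaling to the UMIs outside mitochondrial and ribosomal protein genes 46 and 72. Of the higher genes 7 belonged to the granulocyte and monocyte lists, where 6 of 6 and 1 of 1 measured genes were past 1.5-fold. The summed lists stood at 110.2 and 24.5 CPM without the 6 barcodes rich in granulocyte RNA, against 1040 and 155 CPM with them, and without all barcodes of this kind 20 genes were higher and 101 lower. Of the G2 and M phase list 10 of 19 genes were lower (median -0.60) and of heme synthesis 3 of 8 (-0.57). The early progenitor list had a median of 0.18 with 1 of 10 lower.

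Of the 531 cells 132 had 0.25 to under 0.5% globin UMIs, 398 had 0.5 to under 1% and 1 lay lower. Of 33 lists without the genes of the rule, 28 had overlapping intervals in the lower and the higher of these ranges. The iron handling list was at 5763 CPM (5560 to 5972) in the lower range and 6340.45 CPM (6217 to 6465) in the higher, the mitochondrial transcripts at 33786 and 37858 CPM, the nuclear noncoding RNAs at 8030.3 and 8513 CPM and the sex-linked genes at 515 and 683 CPM. These 4 lists were higher, and the ribosomal protein transcripts lower, at 372117 and 364220 CPM, with intervals that did not overlap. Klf1 was at 282 CPM (239 to 331) in the lower and 308 CPM (282 to 337) in the higher range and Car1 at 788 and 729 CPM, each pair with overlapping intervals. Cpox was at 60.6 CPM (41.5 to 85.6) and 85.4 CPM (71.7 to 101), also with overlapping intervals.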

How the data were processed

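The authors deposited raw UMI counts, 27998 genes by barcode, per the file headers. Reads were processed by the authors with Cell Ranger 2.1 and Seurat 2 on mm10, per the submitters' processing notes; filters on barcodes are not given in the sources used here. The Car1-GFP library holds 2522 barcodes (lowest total 4697, median 14703.5 UMIs) and the marrow library 6458 (median 1048).

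Each barcode was reduced at random, without replacement, to 4000 UMIs (seed 1), or 1000 for the check of the label, counts were summed over each group, and CPM, ratios and shares were given with exact Poisson or binomial 95% intervals that cover counting error only. Genes averaging 20 CPM or more over both groups were compared at 1.5-fold, leaving out the genes of the rule. The counts of genes in the comparisons of cells by depth used all UMIs and a mean of 50 CPM or more. Named genes are the 8 highest and 8 lowest ratios of genes averaging 50 CPM or more, without mitochondrial, ribosomal protein, immunoglobulin and rule genes, the 3 defining genes, and up to 4 members of each list with the largest ratios; other genes named were chosen after their values were seen. The members and the 33 lists (458 genes, 7 without a row) were chosen with earlier results of these data known. The threshold of 20 granulocyte and monocyte UMIs of 4000 was set after seeing the data. Doublets were called with Scrublet in scanpy 1.11.5 (Python 3.11.15, numpy 2.4.6, scipy 1.17.1, pandas 2.3.3): 8 of 2400 barcodes (0.333%), too few for the caller to have worked, so none was removed. How many of the genes past 1.5-fold owe this to counting error was not tested. Results for some genes of the lists are not reported here.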

Additional observations from a re-analysis of the deposited data

How the results depend on the processing

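No paired analysis was possible because there is 1 library per group and no test. Over 16 alternatives, 117 of 160 values stayed within 1.5 times (counts) or the interval (levels and shares) of the value reported, and 43 did not. The cause was not tested except where the alternative's construction shows it (fewer UMIs, genes or cells). At 2000 UMIs per barcode 121 genes were higher than in all other barcodes, 288 lower than in the larger cells, and 159 higher and 238 lower than in the Gata2-rich cells. With all UMIs the counts were 84 higher than in the others, 147 higher and 68 lower than in the larger, and 10 higher and 38 lower than in the Gata2-rich cells; another random seed gave 56 higher than in the Gata2-rich cells. With a mean of at least 50 CPM there were 6 higher and 39 lower than in the others, 79 and 61 than in the larger, 8 and 25 than in the Gata2-rich and 266 and 325 than in the cells with 1 to under 5% globin. Averaging each barcode's share gave 12 higher than in the others, 81 lower than in the larger, and 13 higher and 75 lower than in the Gata2-rich cells. A depth limit of 15000 UMIs gave a share of 16.3% of barcodes and 73 genes higher than in the others. A limit of 25000 gave 29.4%, 15 higher and 52 lower than in the others and 66 higher than in the Gata2-rich cells. With 0 Gata2 UMIs required the share was 17.0% and 44 genes were higher than in the others. With globin under 0.5% the share was 5.625%, Car1 was at 774 CPM, and the genes higher and lower were 167 and 266 against the others, 399 and 412 against the larger and 182 and 294 against the Gata2-rich cells. Scaling to UMIs outside mitochondrial and ribosomal protein genes gave Klf1 502 CPM, Epor 109 CPM, Car1 1229.95 CPM, and 46 genes higher than in the others. Taking Gata2-rich cells with at least 2 Gata2 UMIs, chosen after seeing the data, gave 61 higher. With 1 library of pooled mice, no value carries the spread between animals, sorts or preparations.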
